A study of Mus musculus with 10 samples.

Results

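The genes described here are 6 genes known for their expression in retinal horizontal cells, *Lhx1*, *Onecut1*, *Onecut2*, *Prox1*, *Calb1* and *Gja10*. They were taken by gene name from a table of 54532 genes measured by RNA-seq in 10 mouse retinas, and all 6 were found in it once. The retinas came from 2-month-old albino BALB/c mice, a strain whose photoreceptors are sensitive to light. The labels name no transgene or engineered allele. All mice were dark-adapted for 12 h, and 5 were then kept for 1 day under normal light of 200 lux (NL) and 5 under high-intensity light of 15000 lux (LD). NL retinas are numbered 1, 4, 5, 7 and 8 in the labels and LD retinas 1, 4, 6, 7 and 8. The question was which of these genes differed in level between LD and NL retinas after 1 day.

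Horizontal cells are inhibitory interneurons at the outer edge of the inner nuclear layer. Their processes meet rod and cone terminals, receive glutamate from them and feed back onto them, and neighbouring horizontal cells are coupled into sheets by gap junctions. They are a small part of the cells of a mouse retina, so that in RNA of the whole neural retina their genes can be followed only at the level of the mixture. In such bulk samples, fewer cells of a type and less RNA per cell cannot be told apart. The genes are also not exclusive to horizontal cells. *Prox1* is known in AII amacrine and some bipolar cells, *Calb1* in amacrine and ganglion cells, and the Onecut genes in ganglion cells.

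All 6 genes were read in every retina, and all 6 passed the filter of at least 0.1 FPKM in at least 5 retinas that left 24508 genes for testing. FPKM, a count of sequenced fragments divided by gene length and library depth, takes gene length into account, so that levels of different genes can be set side by side. One gene was higher in LD retinas at an adjusted p under 0.05 (*Onecut2*) and 1 was lower (*Lhx1*), where 14.5% of all genes tested were higher and 13.4% were lower at that threshold. A stricter threshold asked for a fold change over 2 besides an adjusted p under 0.01. It was passed by 6.51% of all genes and, in limma, by 0 of the 6, of which 4 had an unadjusted p under 0.05, as did 38.2% of all genes. With shares of this size among all genes, these counts are no result particular to the 6. The median log2 fold change was -0.22 over the 6 genes and -0.01 over all genes tested, but the 6 values ran from -0.55 to 0.88 and the genes did not move together.

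**Figure D1:**
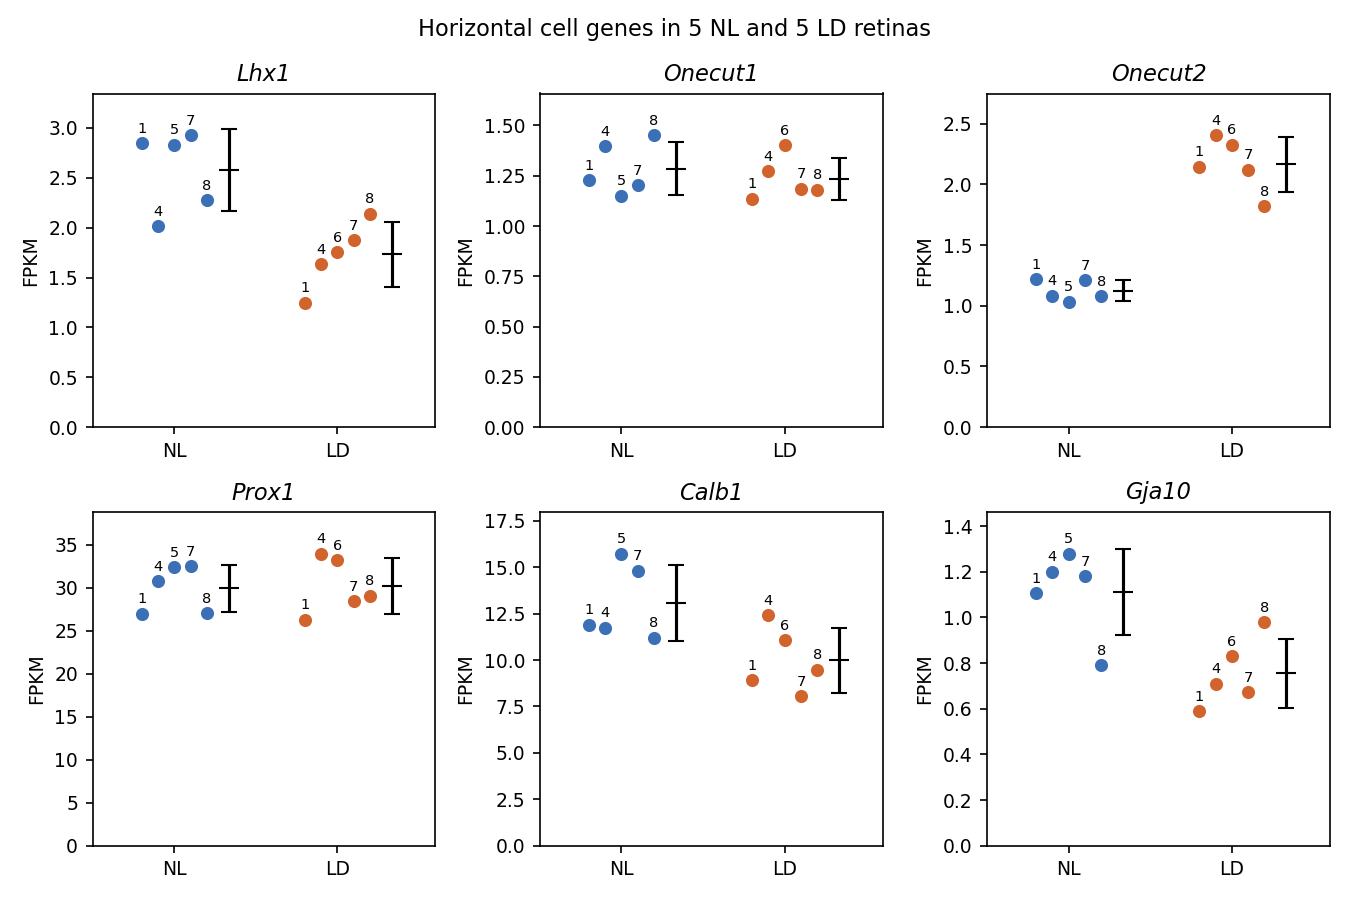
Level of each gene in FPKM in 5 NL retinas (blue) and 5 LD retinas (orange), with the number of each retina from the labels above its point and the mean ± SD as a black bar; each panel has its own axis from 0. Only for *Onecut2* do the groups separate completely, from at most 1.22 FPKM in NL to at least 1.82 FPKM in LD, while *Lhx1*, *Calb1* and *Gja10* sit lower in LD with overlap and *Onecut1* and *Prox1* cover the same range.

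*Onecut2* encodes a transcription factor with a cut domain and a homeodomain that acts with *Onecut1* in forming horizontal cells during development. The gene has the Ensembl identifier ENSMUSG00000045991 and lies on chromosome 18 from 64340364 to 64398488 on the plus strand (GRCm38 positions, as in the deposited table). In the GENCODE annotation of GRCm38 (release M21) the gene has wider limits, 64340020 to 64400987. Its level was 1.22, 1.08, 1.03, 1.21 and 1.08 FPKM in NL retinas 1, 4, 5, 7 and 8, and 2.14, 2.40, 2.33, 2.12 and 1.82 FPKM in LD retinas 1, 4, 6, 7 and 8. The lowest LD retina lay well above the highest NL retina, a separation that 22.4% of all genes tested showed in one direction or the other. The mean rose 1.92 times, from 1.12 ± 0.0844 FPKM under NL to 2.16 ± 0.226 FPKM under LD (SD, n = 5 each). On the log2(FPKM + 0.1) scale, on which all fold changes here are given unless stated, the change was 0.88 (SE 0.11, 95% confidence interval 0.65 to 1.12, limma adjusted p = 1.39e-04). The two-sided exact permutation test over retinas gave p = 0.00794, the smallest that 5 against 5 retinas allow. These values rested on 281 to 372 reads in each NL retina, and on 543 to 700 in LD. The fold change lay just under 2, and it lay over 2 when the authors' scaling factor per retina was removed (log2 fold change 1.01, adjusted p = 6.45e-05) or when values were rescaled to TPM, which sum to the same total in every retina (1.03, adjusted p = 7.37e-05), so the call at 2-fold depended on the scaling. Its adjusted p was under 0.05 in all 23 alternatives, with the highest value, 0.0171, under a block for shared replicate numbers. No gene of the table overlapped *Onecut2* in position.

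*Onecut1*, the paralog of *Onecut2* with the same kind of domains, showed no such difference. Its level was 1.23, 1.40, 1.15, 1.20 and 1.45 FPKM in NL retinas 1, 4, 5, 7 and 8, and 1.14, 1.27, 1.40, 1.18 and 1.18 FPKM in LD retinas 1, 4, 6, 7 and 8. The groups overlapped over nearly their whole range. The mean was 1.29 ± 0.131 FPKM in NL and 1.23 ± 0.105 FPKM in LD (SD, n = 5 each). Its log2 fold change of -0.05 (SE 0.11, 95% confidence interval -0.30 to 0.19) did not pass the test (limma adjusted p = 0.777, exact permutation p = 0.516), and its sign changed with the scaling, to 0.07 without the factor per retina and 0.05 with TPM. The interval leaves room for a change anywhere from -0.30 to 0.19, but not for one as large as that of *Onecut2*. *Onecut1* (ENSMUSG00000043013) lies on chromosome 9 from 74861921 to 74891781 on the plus strand, and overlaps the lincRNA *Gm20649* on the same strand, which was listed at 0 FPKM in all 10 retinas. It was read with 96 to 154 reads per retina.

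The ratio of the Onecut genes within a retina does not depend on how the retina was scaled. *Onecut1* stood at 0.994 to 1.35 times the level of *Onecut2* in NL retinas (median 1.11) and at 0.529 to 0.648 times in LD retinas (median 0.559). The groups did not overlap, and the mean log2 ratio, taken without a pseudocount, changed by -0.997 from NL to LD (exact permutation p = 0.00794). Under NL the levels of *Onecut1* and *Onecut2* overlapped, and under LD every retina had more *Onecut2* than *Onecut1* RNA per kilobase.

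*Lhx1* encodes a LIM homeodomain transcription factor that horizontal cells need to settle in their layer and take their shape. Its level was 2.85, 2.01, 2.83, 2.93 and 2.28 FPKM in NL retinas 1, 4, 5, 7 and 8, and 1.25, 1.64, 1.76, 1.88 and 2.14 FPKM in LD retinas 1, 4, 6, 7 and 8. Of the 5 LD retinas, 4 lay below all NL retinas, and LD retina 8 lay above NL retina 4. The mean fell to 0.672 of its NL level, from 2.58 ± 0.409 FPKM under NL to 1.73 ± 0.328 FPKM under LD (SD, n = 5 each). The log2 fold change was -0.55 (SE 0.15, 95% confidence interval -0.90 to -0.21, limma adjusted p = 0.0218, two-sided exact permutation p = 0.0159). This call was close to its threshold. Leaving out NL retina 1, 5 or 7 gave an adjusted p of 0.0525, 0.0540 and 0.0550, with log2 fold changes of -0.52, -0.52 and -0.51, and averaging the closest pairs of retinas gave -0.45 at an adjusted p of 0.121. Over all 23 alternatives the adjusted p lay between 0.0135 and 0.141 and the sign stayed negative. Behind these values stood 174 to 253 reads of *Lhx1* in each NL retina, and 124 to 194 in LD.

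*Lhx1* (ENSMUSG00000018698) lies on chromosome 11 from 84518284 to 84525535 on the minus strand. On the other strand, with its start 125 bases away, begins the lincRNA *Lhx1os* (chromosome 11, 84525660 to 84535831), which no rule for naming genes called for and which was looked at after the values were seen. Its level was 5.56, 2.83, 4.94, 5.06 and 4.28 FPKM in NL retinas 1, 4, 5, 7 and 8, and 3.41, 3.25, 3.71, 3.27 and 4.63 FPKM in LD retinas 1, 4, 6, 7 and 8. In both transcripts NL retina 4 was the lowest of the NL retinas and LD retina 8 the highest of the LD retinas. The log2 fold change of *Lhx1os* was -0.28 (SE 0.17, 95% confidence interval -0.66 to 0.10) and did not pass the test (limma adjusted p = 0.271).

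The stretch before the starts of *Lhx1* and *Onecut1* is shown because it separates the divergent pair *Lhx1* and *Lhx1os* in one case, and belongs to the Onecut gene without the change of *Onecut2* in the other. Sequences are the 250 bases before each start in RefSeq (build GRCm38.p6), 5′ to 3′ on the strand of the gene. Capitals mark the letters TGACGTC, a form of the site that CREB and ATF factors bind, on either strand. The *Lhx1* sequence is chr11:84525535-84525784 on the minus strand, and it reaches into the first part of *Lhx1os*. The *Onecut1* sequence is chr9:74861671-74861920 on the plus strand.
Lhx1: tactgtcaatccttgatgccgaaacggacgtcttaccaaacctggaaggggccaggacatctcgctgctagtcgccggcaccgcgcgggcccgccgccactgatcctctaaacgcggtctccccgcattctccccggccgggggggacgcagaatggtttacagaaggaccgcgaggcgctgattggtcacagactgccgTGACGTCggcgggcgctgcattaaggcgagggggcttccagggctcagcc
Onecut1: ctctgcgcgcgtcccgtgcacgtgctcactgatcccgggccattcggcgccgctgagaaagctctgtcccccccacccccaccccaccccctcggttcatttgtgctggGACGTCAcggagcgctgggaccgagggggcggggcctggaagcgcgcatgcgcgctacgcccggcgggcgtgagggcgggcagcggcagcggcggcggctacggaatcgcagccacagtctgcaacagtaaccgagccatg
In *Lhx1* the marked letters lie 50 to 44 bases before the start, on the strand of the gene. In *Onecut1* they lie 141 to 135 bases before the start, on the opposite strand. Of 32851 promoter sequences of the same 250-base length, 2.78% hold them on one strand or the other. CCAAT, the CCAAT box bound by NF-Y, is in the *Lhx1* sequence on the opposite strand 68 to 64 bases before the start, not in that of *Onecut1*, and in 33.8% of all promoters. The other motifs searched on both strands, TATAAA (12.4% of all promoters), TAATTA (4.84%), which LIM homeodomains bind, and ATCGAT (0.728%) and ATCAAT (6.72%), which cut homeodomains bind, are in neither sequence. TGACGTC and CCAAT were chosen for the search after the sequences had been read, and a match is a description of letters only. Of the 6 genes, 4 had an entry in the promoter table. *Gja10* is not shown because its entry falls inside the first exon of the GENCODE annotation, and *Prox1* has more than one start there.

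*Prox1* encodes a prospero homeodomain transcription factor that promotes horizontal cell fate and stays on in mature horizontal cells. It was the most abundant of the 6 genes, with 27.0, 30.8, 32.4, 32.5 and 27.0 FPKM in NL retinas 1, 4, 5, 7 and 8, and 26.3, 34.0, 33.2, 28.4 and 29.1 FPKM in LD retinas 1, 4, 6, 7 and 8. LD retinas 4 and 6 were the 2 highest of all 10 retinas and LD retina 1 was the lowest. The mean was 29.9 ± 2.76 FPKM in NL and 30.2 ± 3.28 FPKM in LD (SD, n = 5 each). The log2 fold change was 0.01 (SE 0.09, 95% confidence interval -0.18 to 0.20, limma adjusted p = 0.951, exact permutation p = 0.944), with a sign that turned when 1 retina was left out. With 4847 to 6232 reads per retina, *Prox1* was the most deeply read of the 6. *Prox1* (ENSMUSG00000010175) lies on chromosome 1 from 190118035 to 190170714 on the minus strand and overlaps 2 antisense transcripts, *Gm28172* and *Prox1os*. *Gm28172* measured 9.56 ± 1.90 FPKM in NL and 9.17 ± 2.14 FPKM in LD (adjusted p = 0.817), and *Prox1os* 2.93 ± 1.20 and 2.44 ± 0.732 FPKM (SD, n = 5 each, limma adjusted p = 0.720). Whether reads were counted by strand is not given in the sources used here, and without strand the reads of *Prox1* and of these transcripts cannot be told apart where they overlap.

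*Calb1* encodes calbindin, the calcium-buffering protein by which horizontal cells are commonly stained. Its level was 11.9, 11.7, 15.7, 14.8 and 11.2 FPKM in NL retinas 1, 4, 5, 7 and 8, and 8.93, 12.4, 11.1, 8.05 and 9.49 FPKM in LD retinas 1, 4, 6, 7 and 8. All LD retinas except LD retina 4 lay below all NL retinas. The mean was 13.1 ± 2.05 FPKM in NL and 9.99 ± 1.74 FPKM in LD (SD, n = 5 each), a ratio of 0.764. The log2 fold change of -0.39 (SE 0.13, 95% confidence interval -0.68 to -0.10) missed the threshold by little (limma adjusted p = 0.0507, two-sided exact permutation p = 0.0476). Without LD retina 4 the log2 fold change was -0.47 with an adjusted p of 0.0217, and without NL retina 8 it was -0.44 (adjusted p = 0.0452). The adjusted p lay between 0.0217 and 0.184 over all 23 alternatives. *Calb1* (ENSMUSG00000028222) lies on chromosome 4 from 15881264 to 15908064 on the plus strand and had 889 to 1548 reads per retina.

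*Gja10* encodes the connexin that forms the gap junctions between the dendrites of horizontal cells in the mouse. Its level was 1.11, 1.20, 1.28, 1.18 and 0.791 FPKM in NL retinas 1, 4, 5, 7 and 8, and 0.590, 0.709, 0.829, 0.672 and 0.979 FPKM in LD retinas 1, 4, 6, 7 and 8. LD retinas 1, 4 and 7 lay below all NL retinas, and the groups overlapped through NL retina 8 and LD retinas 6 and 8. The mean was 1.11 ± 0.189 FPKM in NL and 0.756 ± 0.152 FPKM in LD (SD, n = 5 each), a ratio of 0.680 that is close to the 0.672 of *Lhx1*. The log2 fold change of -0.50 (SE 0.17, 95% confidence interval -0.88 to -0.12) had a limma adjusted p of 0.0513 and a two-sided exact permutation p of 0.0238. Without LD retina 8 the log2 fold change was -0.59 with an adjusted p of 0.0299, and without NL retina 8 it was -0.61 (adjusted p = 0.0208). The adjusted p lay between 0.0208 and 0.262 over all 23 alternatives. *Gja10* (ENSMUSG00000051056) lies on chromosome 4 from 32596960 to 32602760 on the minus strand, and with 31 to 56 reads per retina it was the most thinly read of the 6.

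**Figure D2:**
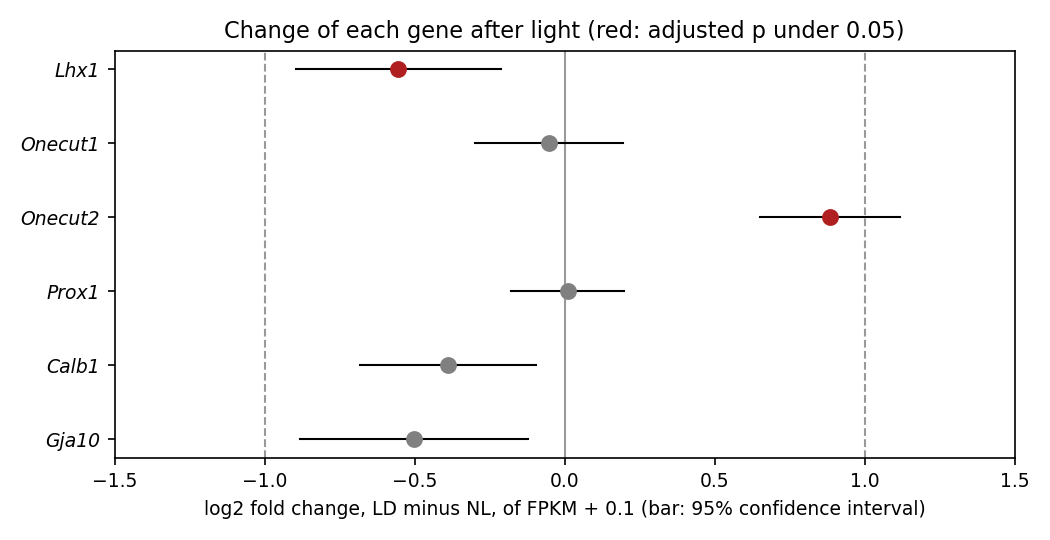
Log2 fold change of each gene, LD minus NL, on the log2(FPKM + 0.1) scale with its 95% confidence interval; red points have an adjusted p under 0.05 and dashed lines mark a 2-fold change. *Onecut2* at 0.88 and *Lhx1* at -0.55 lie on opposite sides of 0, *Calb1* and *Gja10* lie below 0 at -0.39 and -0.50, and *Onecut1* and *Prox1* are near 0.

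The depth of each gene sets how much of its spread is counting error. For *Gja10* counting alone would give a coefficient of variation of 13.9% in NL and 16.6% in LD, and 17.0% and 20.1% were observed. For *Onecut1* the expected 9.25% and 9.38% stood beside an observed 10.2% and 8.53%. *Lhx1* varied more than its reads alone would give, at 15.9% in NL against 6.60% and at 19.0% in LD against 7.97%. *Calb1* varied by 15.6% in NL and 17.4% in LD where counting would give 2.69% and 3.05%, so its spread between retinas was several times that of counting.

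Ordered by level, *Prox1* and *Calb1* came first in both groups, with no overlap between them or with the other genes. Under NL *Lhx1* came next, at 2.01 to 2.93 FPKM, and *Onecut1*, *Onecut2* and *Gja10* followed with overlapping ranges around 1 FPKM. Under LD *Onecut2* came next, at 1.82 to 2.40 FPKM, followed by *Lhx1* at 1.25 to 2.14 FPKM with overlapping ranges, and *Gja10* was lowest, at 0.590 to 0.979 FPKM, below every value of *Onecut1*.

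Ratios between the genes within each retina were compared for all 15 pairs, on the log2 scale without a pseudocount, with two-sided exact permutation tests and Benjamini-Hochberg adjustment over the 15. Of these, 8 passed an adjusted p of 0.05, among them all 5 ratios with *Onecut2* (exact permutation p = 0.00794 and adjusted p = 0.0198 each, with no overlap between the groups). The 15 ratios share genes and are not independent, and all 5 with *Onecut2* carry the change of that gene. No share over other gene pairs was computed, so the 8 cannot be set against a background. *Lhx1* stood at 1.86 to 2.74 times the level of *Onecut2* in NL retinas and at 0.583 to 1.17 times in LD retinas. *Calb1* stood at 0.381 to 0.485 times the level of *Prox1* in NL and at 0.283 to 0.365 times in LD, again without overlap (log2 change -0.40, exact permutation p = 0.00794, adjusted p = 0.0198). *Lhx1* to *Prox1* and *Prox1* to *Gja10* also passed, with overlap (adjusted exact p = 0.0446 and 0.0340). The ratios among *Lhx1*, *Calb1* and *Gja10* did not pass. *Lhx1* was at 1.68 to 2.88 times *Gja10* in NL and 2.12 to 2.79 times in LD (log2 change -0.02, exact permutation p = 0.905).

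**Figure D3:**
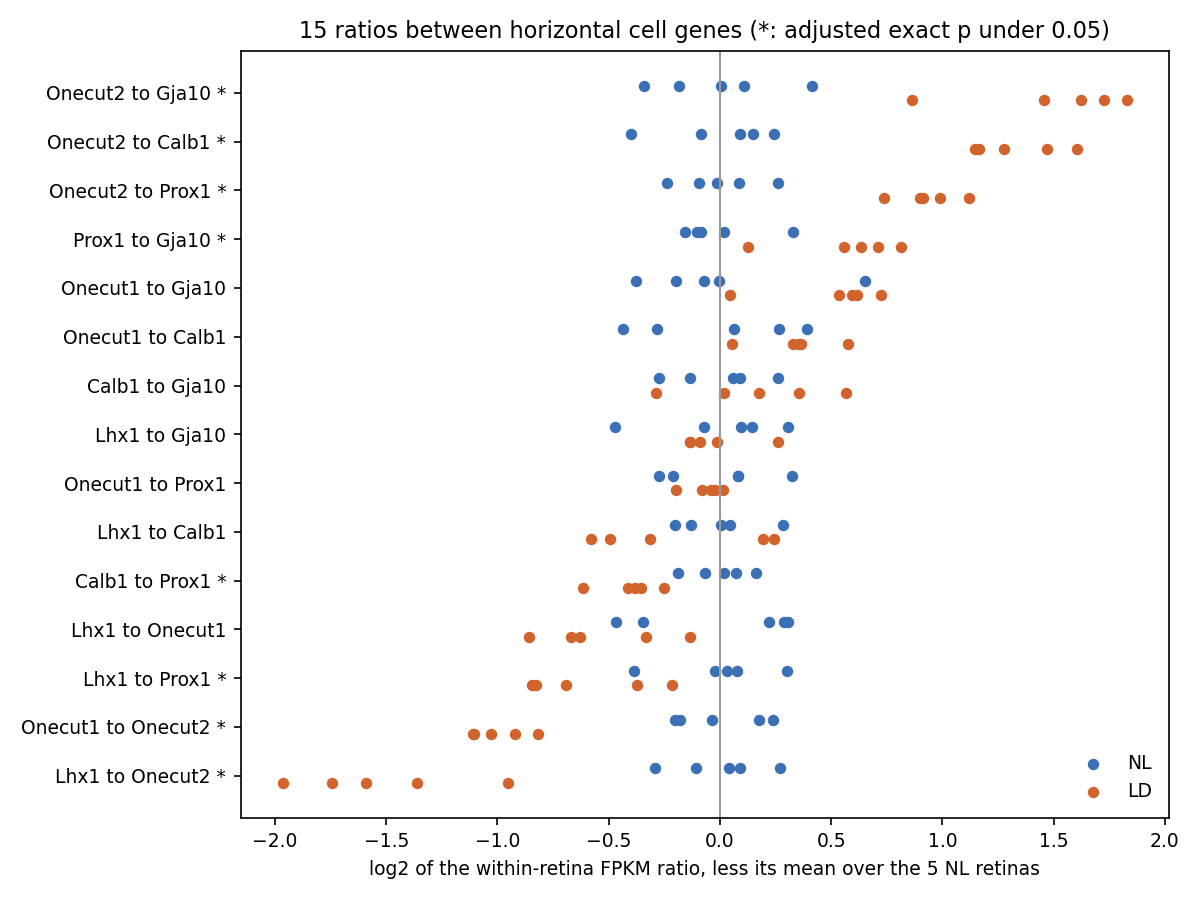
Log2 ratio of the FPKM of 2 genes within each retina, less the mean of that ratio over the 5 NL retinas, for all 15 pairs; NL retinas are blue, LD retinas orange, and an asterisk marks an adjusted exact permutation p under 0.05. The 5 ratios with *Onecut2* and the ratio of *Calb1* to *Prox1* have no overlap between NL and LD, while *Lhx1* to *Gja10* lies around 0 in both groups.

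Most other genes known in horizontal cells did not pass an adjusted p of 0.05, and neither did 17690 of the 24508 genes tested. At that threshold 14.5% of all genes tested were higher and 13.4% were lower. The counts below are therefore no result particular to horizontal cell genes. Of 6 other horizontal cell transcription factors, 4 were tested and none passed an adjusted p of 0.05 (median log2 fold change -0.01). *Tfap2b*, an AP-2 factor of horizontal and amacrine cells and the most abundant of them, had 33.3 ± 0.699 FPKM in NL and 32.4 ± 3.06 FPKM in LD (SD, n = 5 each, limma adjusted p = 0.651). *Onecut3*, the remaining Onecut gene, was looked at after the values were seen, and had 1.90 ± 0.224 FPKM in NL and 1.95 ± 0.353 FPKM in LD (limma adjusted p = 0.910). The factors *Ptf1a* and *Foxn4*, which act in horizontal cell formation in the embryo, were below the filter. Of 12 other genes for horizontal cell structure and transmission, all were tested, 1 was higher, 1 was lower and 10 did not pass an adjusted p of 0.05 (median log2 fold change -0.03). The most abundant, *Nefl*, a neurofilament gene that ganglion cells also express, had 70.5 ± 6.43 FPKM in NL and 63.9 ± 2.97 FPKM in LD (limma adjusted p = 0.142). The 2 that passed are named after their values were seen. *Sept4*, a septin gene, fell from 45.0 ± 8.59 to 27.9 ± 3.81 FPKM (log2 fold change -0.68, adjusted p = 0.00408), and *Tpm3*, a tropomyosin gene, rose from 11.8 ± 1.98 to 18.5 ± 2.86 FPKM (log2 fold change 0.64, adjusted p = 0.00519), both in limma with n = 5 each.

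The families of the 6 genes were taken next. Of all genes tested, 14.5% were higher and 13.4% lower at an adjusted p under 0.05, and 6.51% passed the stricter 2-fold threshold. Among 22 other connexins and pannexins, 10 were tested and 2 were lower at an adjusted p under 0.05, 1 of them over 2-fold. That gene, *Gje1*, was at the edge of detection, with 6 to 15 reads in each NL retina, and 2 to 4 in LD (log2 fold change -1.14, adjusted p = 0.00248), and it was not called in 5 of the 23 alternatives. The other, *Gjd2*, the main neuronal connexin of the retina and named after its values were seen, fell from 28.3 ± 3.25 to 22.2 ± 2.27 FPKM (SD, n = 5 each, log2 fold change -0.35, limma adjusted p = 0.0162). Among 24 LIM, cut and prospero homeobox relatives and LIM cofactors, 19 were tested, of which 1 was higher and 1 lower at an adjusted p under 0.05 and none passed 2-fold. The most abundant, the LIM cofactor *Ldb1*, had 31.0 ± 0.981 FPKM in NL and 32.8 ± 2.56 FPKM in LD (limma adjusted p = 0.355). Those that passed, named after their values were seen, were the LIM-only gene *Lmo4* (log2 fold change 0.41, adjusted p = 0.00807) and the LIM cofactor *Ssbp2* (-0.24, adjusted p = 0.0247). Of 17 EF-hand calcium-binding relatives of *Calb1*, 16 were tested, none was higher and 4 were lower at an adjusted p under 0.05. *Cabp4*, a calcium-binding protein of photoreceptor terminals, was the one past 2-fold, and it fell from 140 ± 6.66 to 60.5 ± 9.35 FPKM (SD, n = 5 each, log2 fold change -1.23). *Calb2*, the closest paralog of *Calb1* and chosen after its values were seen, had 152 ± 12.7 FPKM in NL and 146 ± 6.57 FPKM in LD (limma adjusted p = 0.629).

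Markers of the other cells of the retina moved beside these genes, and none of the markers was at 0 in any retina. Of 8 rod markers, 8 were lower over 2-fold, among them *Gnat1* and *Nrl* (log2 fold changes -2.71 and -2.64), and their summed level fell from 8068 to 9881 FPKM in NL to 1192 to 2409 FPKM in LD. Of 8 cone markers, 8 were lower at an adjusted p under 0.05 and 4 of them over 2-fold, led by *Opn1sw*, *Opn1mw* and *Arr3* (-2.86, -2.18 and -1.97), with sums of 309 to 475 and 49.9 to 164 FPKM. Microglia markers had 5 of 8 higher over 2-fold, led by the complement genes *C1qc*, *C1qb* and *C1qa* (2.27, 2.15 and 1.86), with sums of 32.2 to 50.8 FPKM in NL and 63.7 to 151 FPKM in LD. Of the cone markers 1 was called, and of the microglia markers 2, with the closest pairs of retinas averaged. Muller glia markers had 1 of 8 called over 2-fold, *Glul* (-2.09), while 1, *Slc1a3*, named after its values were seen, was higher (0.50, adjusted p = 0.0109), and the median of the list was -0.01. Their sums were 1515 to 1821 FPKM in NL and 933 to 1270 FPKM in LD, and without *Glul* 882 to 996 FPKM and 768 to 1100 FPKM, which overlap. Endothelial markers had 1 of 8 called, *Pdpn* (2.09), a gene known in lymphatic vessels and reactive cells, with sums of 54.9 to 69.9 and 108 to 176 FPKM. These sums mostly follow *Pdpn*, with means of 16.6 and 71.8 FPKM, and *Kdr*, with 30.0 and 49.8 FPKM. *Kdr*, named after its values were seen, was higher (0.70, limma adjusted p = 0.00876), and the other 6 did not pass an adjusted p of 0.05. No marker of ganglion, amacrine, bipolar or pigment epithelium cells was called over 2-fold, and *Sncg* and *Ttr*, the most abundant ganglion and pigment epithelium markers, had log2 fold changes of 0.00 and 0.29. At an adjusted p under 0.05, 0 of 10 ganglion, 0 of 10 amacrine and 0 of 8 pigment epithelium markers passed in limma. Of 10 bipolar markers 1 was higher and 2 were lower. Of the 24508 genes tested, 17690 did not pass that threshold either. Sums ran from 185 to 213 FPKM in NL and 179 to 213 FPKM in LD for ganglion, 207 to 240 and 192 to 235 FPKM for amacrine, 429 to 516 and 380 to 545 FPKM for bipolar, and 55.4 to 143 and 63.4 to 123 FPKM for pigment epithelium markers. *Tfap2b*, *Isl1*, *Isl2* and *Cabp5* stand in more than one of these lists. The part of rods and of these other cells in the values of the 6 genes was not tested.

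**Figure D4:**
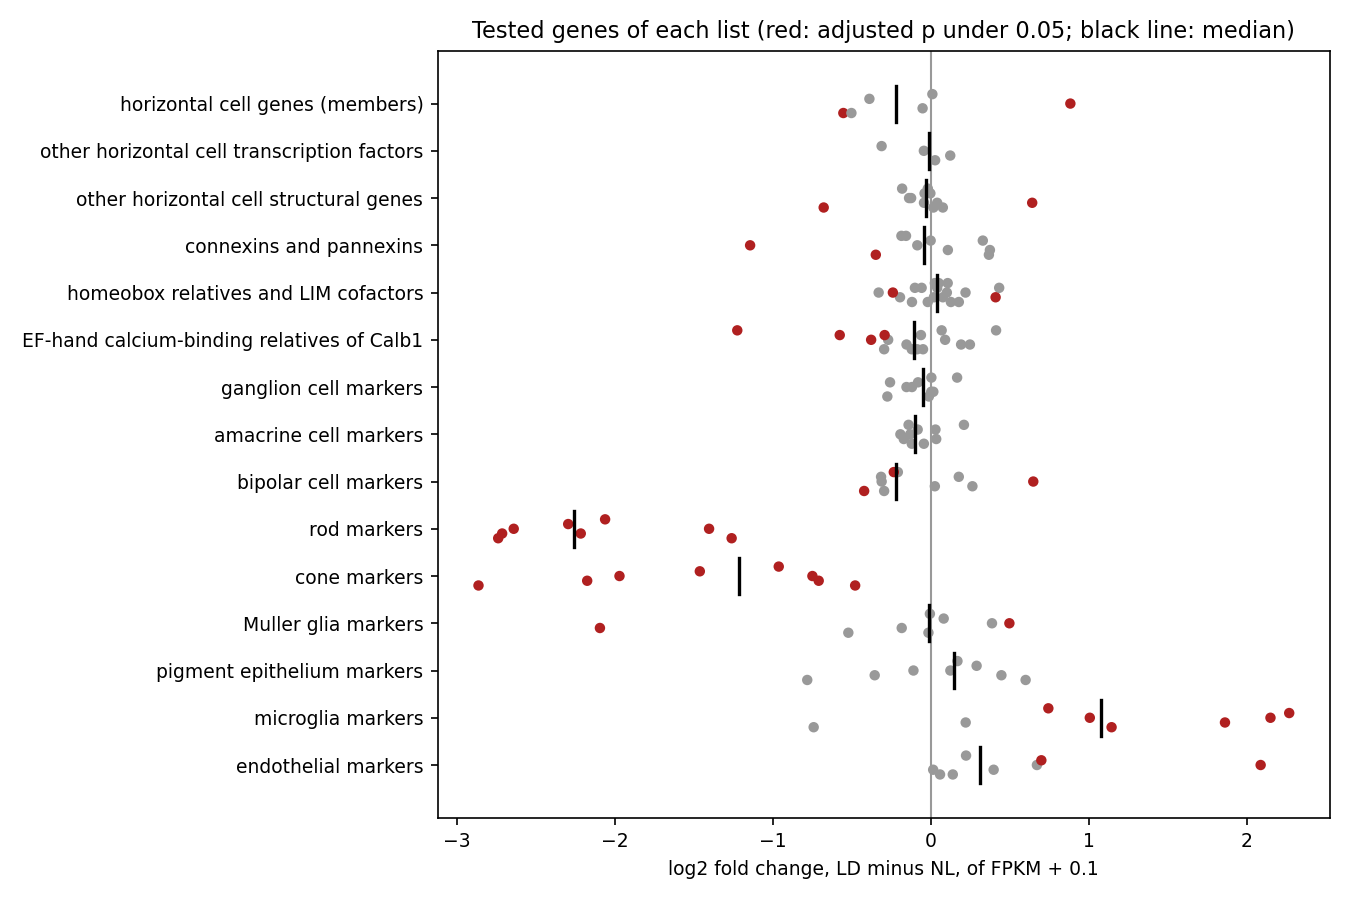
Log2 fold change, LD minus NL, of every tested gene in each list, with the 6 horizontal cell genes in the top row; red points have an adjusted p under 0.05 and a black line marks the median of the list. The horizontal cell genes spread from -0.55 to 0.88 around a median of -0.22, and rod and cone markers lie far to the left with medians of -2.26 and -1.21.

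Retinas also differed within groups. LD retinas 4 and 6 had the lowest sums of rod markers, 1192 and 1271 FPKM, the remaining LD retinas having 1922 to 2409 FPKM. LD retinas 4 and 6 also had the highest *Onecut1*, *Onecut2*, *Prox1* and *Calb1* values of the LD group. NL retinas 4 and 8 and LD retinas 4 and 6 contained *Xist* RNA, 159 to 194 FPKM, which marks female tissue, and the other 6 retinas at most 0.118 FPKM. Both groups thus held 2 retinas with and 3 without it. *Calb1* changed by 0.03 on the log2 scale among retinas with *Xist* and by -0.67 among those without, and *Prox1* by 0.22 and -0.13. *Lhx1* was lower in both sets (-0.32 and -0.71), as was *Gja10* (-0.31 and -0.63), and *Onecut2* was higher in both (1.06 and 0.76). The difference between the sets was tested as an interaction term in limma, added after the values were seen. It was 0.70 for *Calb1* (95% confidence interval 0.31 to 1.09, unadjusted p = 0.00317) and 0.35 for *Prox1* (0.05 to 0.65, unadjusted p = 0.0286), and over all genes tested it passed for none of the 6 (adjusted p from 0.110 for *Calb1* to 0.919 for *Onecut1*). The LD retinas with *Xist*, 4 and 6, were also those with the lowest rod sums and the pair most alike in read counts. In LD, sex, rod marker level and this likeness therefore cannot be told apart. With *Xist* presence as a covariate, an alternative added after the values were seen, the count at an adjusted p under 0.05 stayed at 2.

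Between retinas of one group, the chi-square of read counts per gene was 2.52 for LD retinas 4 and 6, 2.71 for NL retinas 5 and 7 and 3.41 for LD retinas 1 and 7, and 10.9 to 38.5 for the other 17 pairs. Sampling noise alone would give about 1, so none of the 10 samples was counted as a copy of another. A value above 1 does not show that retinas are independent, and whether the closest pairs came from related samples was not tested. The labels do not say whether retinas came from separate animals, while the paper speaks of biological replicates. The p-values here treat the 10 samples as independent, and hold only as far as they are.

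For each gene, the 2 protein-coding genes with the most similar profile were taken from the 12689 whose mean reached 1 FPKM under NL or LD, by the root mean square difference of log2(FPKM + 0.1) over the 10 retinas after each gene was centred on its own mean. Nearest to *Onecut2* were *Atp9a* (0.0698), a lipid flippase gene, and the receptor gene *Notch1* (0.0830), with log2 fold changes of 0.84 and 0.86. Nearest to *Lhx1* were *Nt5dc2* (0.126) and the Wnt receptor gene *Fzd4* (0.134), both lower by about as much as *Lhx1* (-0.54 and -0.53). Nearest to *Calb1* were the glycolytic gene *Pgam1* (0.0955) and the connexin gene *Gjd2* (0.0965), and nearest to *Gja10* were *Vps37c* (0.102) and the synaptic scaffold gene *Homer3* (0.121). Nearest to *Prox1* were *Scg3* (0.0417) and *Fam102a* (0.0451), and nearest to *Onecut1* were the calcium channel subunit gene *Cacnb4* (0.0512) and *Rit1* (0.0567). None of these was another of the 6 genes. Genes that differ between LD and NL share that difference with many others, so the likeness is a description of profiles only.

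**Figure D5:**
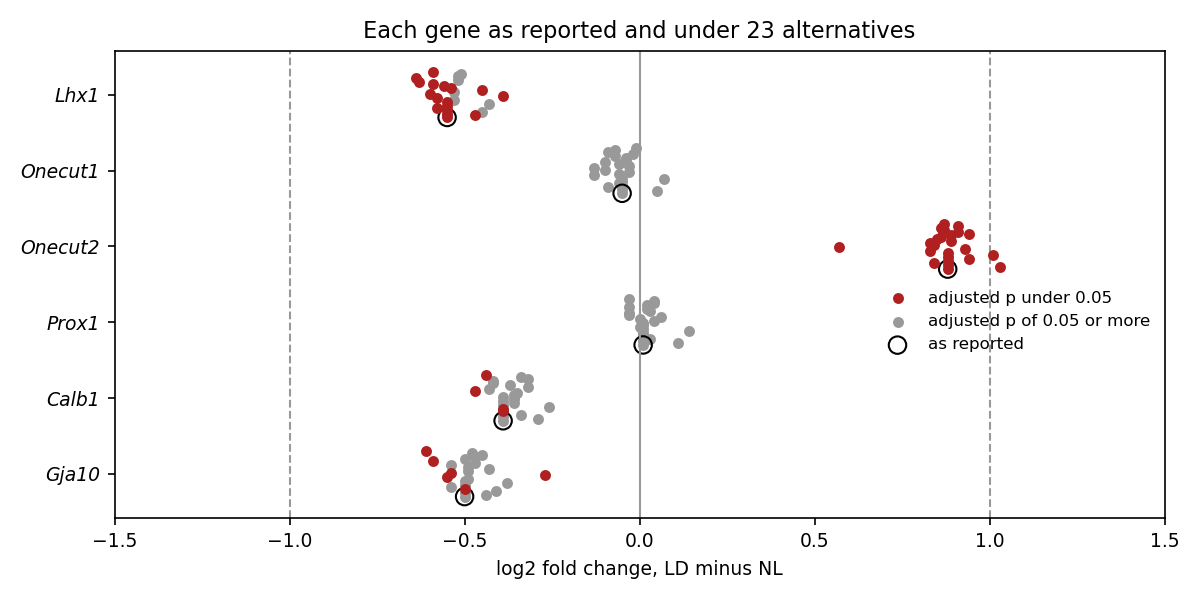
Log2 fold change of each gene, LD minus NL, as reported (open circle) and under 23 alternatives of scaling, filter, pseudocount, test and retinas; red points have an adjusted p under 0.05, grey points 0.05 or more, and dashed lines mark a 2-fold change. *Onecut2* stays between 0.57 and 1.03 and red throughout, *Lhx1* stays between -0.64 and -0.39 with 7 alternatives grey, and *Calb1* and *Gja10* stay below 0 and are red in 4 and 6 alternatives.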

How the data were processed

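Total RNA of whole neural retina was made into libraries with an Illumina TruSeq kit from 3 ug of RNA, per the labels. The paper names a HiSeq instrument with paired reads and normalization by a sequencing company, while the series text names a NovaSeq. The submitters' processing notes name Bowtie2 2.0.6, TopHat2 2.0.9 and mm8, but gene positions in the deposited table are those of GRCm38. The counting program, its annotation and its use of strand are not given in the sources used here. The authors deposited FPKM per gene and retina, with no counts. FPKM times gene length came out as whole reads (100% within 0.01), which gave 18965090 to 26832535 reads per retina and showed that FPKM contain a factor per retina, 0.951 to 0.968 in NL and 1.041 to 1.069 in LD.

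The LD and NL groups were compared by limma 3.58.1 (R 4.3.3) with an intensity trend on log2(FPKM + 0.1), keeping genes that reached 0.1 FPKM in 5 or more retinas, with Benjamini-Hochberg adjustment over all genes tested, and single genes also by exact permutation of retinas (scipy 1.17.1). The fit was also run on simulated data. Changes drawn there were larger than those of the 6 genes, and no retinas were drawn as alike pairs. That run therefore cannot show how the fit performs on changes of the size seen here. Alternatives changed the pseudocount, filter, scaling, test and retinas. The members and lists were chosen with earlier results of these data known. All 6 members are named. Of each list, the called genes (at most 3, largest change first) are named, or the most abundant gene where none was called, and the 2 nearest profiles per member and genes overlapping a member, with others named as chosen after their values were seen. Some list genes that this rule selects are not reported here.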

Additional observations from a re-analysis of the deposited data

How the results depend on the processing

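With no minimum for the fold change, 1 gene (*Onecut2*) passed an adjusted p under 0.01, and 1 gene, again *Onecut2*, was called past 2-fold with TPM and with no factor per retina, the count being 0 in the report, in the 10 fits that left out 1 retina each and in the other alternatives. Removing the factor moved the median log2 fold change of all genes from -0.01 to 0.11. The count at an adjusted p under 0.05, 2 in the report, was 1 with no factor per retina, with the closest pairs averaged, and over the 4 shared replicate numbers with and without a replicate block, and 1 to 4 with 1 retina left out. *Lhx1* lost its call with no factor per retina (-0.43), with the closest pairs averaged (-0.45), and over the shared numbers with and without the block (-0.53 each, adjusted p = 0.141 and 0.0888), and ranged from -0.64 to -0.45 with 1 retina left out. *Calb1* passed with limma-voom and when each gene had to average 1 FPKM under NL or LD (-0.39 each), and ranged from -0.47 to -0.32 with 1 retina left out. *Gja10* passed in limma without the trend (-0.50), with a pseudocount of 0.01 (-0.55) or 1 (-0.27) and with quantile normalization (-0.54), and ranged from -0.61 to -0.43 with 1 retina left out. *Onecut1* changed sign with TPM (0.05) and with no factor per retina (0.07), and *Prox1* when NL retina 1 or 8 or LD retina 4 or 6 was left out, with a range of -0.03 to 0.06. *Onecut2* kept its sign and its adjusted p under 0.05 in all 23 alternatives.

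Retinas that share a number correlated by only -0.089 to 0.066 in their deviations from the group means, and only number 4 was closest to its own number. The main fit did not use the numbers as pairs, and so few correlations cannot decide whether they are. The block left 808 called genes over the shared numbers, where the same retinas without the block gave 1182 and all retinas gave 1595. A pseudocount of 1 gave 816 called genes, and averaging the closest pairs gave 1076 (the cause was not tested). Cone markers called over 2-fold, 4 in the report, numbered 1 with the closest pairs averaged and over the shared numbers with and without the block, and microglia markers, 5 in the report, numbered 2 with the closest pairs averaged and 3 with the block or a pseudocount of 1. Depth limits *Gja10* most, at 31 to 56 reads per retina.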
